A study of Rattus norvegicus with 12 samples.

Results

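The genes described here encode the secreted Wnt ligands (Wnt), the Frizzled receptors that bind them at the cell surface (Fzd), and the secreted Frizzled-related proteins (Sfrp) and Dickkopf proteins (Dkk), which hold ligand or receptor in check. They were taken by name from the deposited gene table: a row belonged if its symbol was Wnt, Fzd, Sfrp or Dkk followed by a number and at most 1 letter. This gave 36 of 40154 genes, of which 19 were Wnt, 10 Fzd, 4 Sfrp and 3 Dkk genes. A summed count of at least 100 over the 12 libraries was reached by 26 of them (12 Wnt, 8 Fzd, 4 Sfrp and 2 Dkk genes), and these 26 were also the ones that passed the expression filter of the test. RNA came from whole bladder of female Wistar rats aged 10 to 12 weeks. Of the 4 groups of 3 samples, 1 was labelled normal control, and the sources used here do not give whether those animals had sham surgery. The other groups were sampled 7, 14 and 28 days after complete transection of the cord at the T10 level, which leaves a neurogenic bladder.

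Wnt proteins are lipid-modified signals that act over short distances. With Frizzled and an Lrp co-receptor they stabilise beta-catenin, which joins Tcf and Lef factors on target genes, and through Ror, Ptk7 and other receptors they steer cell polarity and movement without it. Sfrp proteins carry a Frizzled-like domain and bind Wnt ligands outside the cell, whereas Dkk1, Dkk2 and Dkk4 act on the co-receptor. In the bladder, signals between the urothelium and the connective tissue beneath it are known to govern growth and repair of the epithelium, and Wnt ligands are among them.

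At day 7 the inhibitors Sfrp1 and Sfrp4 rose to many times their control level, and at days 14 and 28 both lay far below their day-7 level. Sfrp5 fell at all 3 times. Among the ligands, Wnt7b fell at day 7, Wnt6 at days 7 and 14, Wnt5a at days 7 and 28, and Wnt2b and Wnt5b at day 28. Wnt9b rose at day 7 from a few counts, and was included only through its day-7 counts. Of the receptors, Fzd3 fell at days 7 and 28 and the scarce Fzd7 at day 7, and Fzd6 was slightly higher at day 28.

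Calls rest on an adjusted p under 0.05 in edgeR's quasi-likelihood test, with Benjamini-Hochberg adjustment over the 17687 genes tested. Every adjusted p below is from that test unless another tool is named, and changes are log2 fold changes ± approximate standard error (SE). At day 7, 10 of the 26 tested genes were called against control, beside 26.1% of all tested genes. Of these, 4 were higher (15.6% of all genes) and 6 lower (10.5%). The 4 include Wnt9b, which passed the filter only through its day-7 counts. The median log2 fold change of the 26 was −0.21, beside −0.01 over all tested genes. At day 14, 3 were called (2.45% of all genes), 0 higher (1.45%) and 3 lower (0.995%). The median was −0.34, against 0.00 over all genes. At day 28, 6 were called (18.5%), 1 higher (11%) and 5 lower (7.51%), with a median of −0.15 against 0.00. From day 7 to day 14 there were 6 calls (19.5%), 1 higher (7.59%) and 5 lower (12.0%). From day 7 to day 28 there were 4 (18.7%), 1 higher (7.89%) and 3 lower (10.8%). Between days 14 and 28 edgeR called 0 of the 26 (4.34% of all genes, 3.13% higher and 1.22% lower), although 5 had an unadjusted p under 0.05 and DESeq2 called 2. Groups of 3 did not overlap for 17 of the 26 genes at day 7 (45.3% of all tested genes), for 10 at day 14 (24.7%) and for 13 at day 28 (40.5%). The 3 comparisons with control share the same 3 control libraries.

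In all, 14 of the 26 genes were called in at least 1 comparison with control, beside 34.9% of all tested genes. Calls fell on 1 day for 10 of them (24.5% of all genes), on 2 days for 3 (8.68%) and on all 3 days for Sfrp5 (1.74%). Fzd3, Wnt5a and Wnt6 were those called on 2 days, each time lower. The RefSeq promoter table, on the rat build GRCr8, held 25 of the 36 genes. For the genes called lower on at least 2 days and listed there, the 250 bases before the transcription start are printed 5′ to 3′ on the gene's strand, so that their base composition can be compared. Capitals mark a match to CTTTGNN with A or T at each N, the core letters bound by Tcf and Lef factors, searched on both strands. No other motif was searched, so whether another overlaps it is not known.
Sfrp5 (chr1:250960513-250960762, minus strand): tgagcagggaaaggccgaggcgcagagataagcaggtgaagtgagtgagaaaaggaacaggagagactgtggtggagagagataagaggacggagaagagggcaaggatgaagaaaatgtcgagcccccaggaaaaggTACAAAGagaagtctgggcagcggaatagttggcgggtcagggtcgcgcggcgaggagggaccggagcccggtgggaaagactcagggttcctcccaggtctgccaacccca
Wnt5a (chr16:3703415-3703664, plus strand): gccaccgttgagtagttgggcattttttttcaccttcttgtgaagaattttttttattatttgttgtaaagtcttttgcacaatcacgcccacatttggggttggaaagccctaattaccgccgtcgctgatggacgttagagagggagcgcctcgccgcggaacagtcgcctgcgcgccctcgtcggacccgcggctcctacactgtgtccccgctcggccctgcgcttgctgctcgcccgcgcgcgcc
Wnt6 (chr9:83778302-83778551, plus strand): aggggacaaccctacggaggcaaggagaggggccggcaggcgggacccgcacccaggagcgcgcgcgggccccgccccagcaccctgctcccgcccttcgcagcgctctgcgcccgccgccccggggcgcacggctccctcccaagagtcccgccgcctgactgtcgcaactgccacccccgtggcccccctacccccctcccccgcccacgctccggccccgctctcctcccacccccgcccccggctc
Sfrp5 held 1 match, CTTTGTA on the strand opposite to the gene, with its first printed base 112 bases before the start. Wnt5a and Wnt6 held none of these letters in this window. Such a match was found in 14.9% of the 33469 promoters of this length and in 2 of the 25 listed genes, so it is a description of the sequence only. The dinucleotide CG occurred 28 times in the Wnt6 window, 25 times in that of Wnt5a and 12 times in that of Sfrp5, beside a median of 5 over all promoters. GC content was 79.6%, 57.2% and 58.0% in the same order, beside a median of 51.2%.

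Libraries held 26.3 to 30.7 M counts. The tissue label was checked on urothelial and smooth muscle markers: Upk1a, an apical plaque protein, averaged 1770 CPM (read counts scaled to library size) in controls. Levels of cell type markers differed between groups. Over the 9 urothelial markers the summed level was 7160 to 7670 CPM in controls and 4640 to 5700 at day 7, with 6550 to 7190 at day 14 and 5700 to 7360 at day 28. Over 7 fibroblast markers it was 20000 to 25700 CPM in controls and 34000 to 41300 at day 7, against 9640 to 14300 at day 14 and 7930 to 17100 at day 28. Most of that sum came from the collagens Col1a1 (10300 CPM on average in controls, 19200 at day 7) and Col3a1 (9500 and 16400), while Dcn averaged 2270 and 1210. Of the 7, 1 was called higher and 0 lower at day 7. Over 7 smooth muscle markers the sum was 19700 to 22300 CPM in controls, 18000 to 29100 at day 7 and 8020 to 17700 at day 28, with 3 called higher and 1 lower at day 7 and 0 and 2 at day 28. All 5 markers of cycling cells were higher at day 7 (19.7 to 45.3 CPM summed in controls, 362 to 495 at day 7), and 4 of them at day 28 (53.7 to 160). All 6 myeloid markers were higher at days 7 and 28 (185 to 216 CPM in controls, 524 to 621 and 616 to 799), and 5 of them at day 14 (301 to 433). The part of these markers in the results below was not tested. In whole tissue, fewer cells of a type and less RNA per cell cannot be told apart. Day-7 replicate 3 had 1.02% haemoglobin transcripts, against 0.0142% to 0.141% in the other libraries. With it omitted, 8 of the 10 genes called at day 7 were still called, all but Wnt5a and Wnt6. Both calls were also lost without day-7 replicate 2, control replicate 1 or control replicate 2.

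Levels of different genes are compared in TPM, the authors' deposited counts per gene length scaled to the same total in every library. Unlike the CPM, TPM carry no TMM normalization factor. These factors were 0.899 to 0.949 at day 7 and 1.01 to 1.02 in controls, a limit on TPM set side by side between groups. In control bladder the Sfrp family summed to 348 ± 36.9 TPM (SD, n = 3), the Wnt ligands to 224 ± 32.5, the Frizzled receptors to 180 ± 14.1 and the Dkk genes to 52.7 ± 1.39. Sfrp2 alone made up 92.5% ± 0.686 of the Sfrp total in controls. At day 7 that share was 47.2% ± 12.7, with Sfrp1 at 28.7% ± 10.8 and Sfrp4 at 24.0% ± 6.04. By day 28 Sfrp2 was back to 83.5% ± 5.73 of the total. The Sfrp total itself was 465 ± 130 TPM at day 7 and 182 ± 29.0 TPM at day 14, and all 3 day-14 libraries (157 to 214 TPM) lay below all 3 controls (320 to 390 TPM). Among ligands in controls, Wnt7b (64.8 ± 10.8 TPM) and Wnt4 (63.0 ± 13.5 TPM), which did not differ beyond their spread, and Wnt5a (45.4 ± 5.74 TPM) stood highest in TPM. That order rests on the deposited lengths, which for Wnt7b and Wnt4 were the shortest of the family, at 1042 and 1211 bases. Without division by length, Wnt5a had 123 CPM and Wnt2b 78.7 CPM, above Wnt4 at 37.3 CPM and Wnt7b at 33.0 CPM. The shares of the ligand total rest on the same lengths. At day 7 Wnt4 made up 49.2% ± 6.14 of the ligand total and Wnt7b 16.9% ± 3.74, against 27.9% ± 2.02 and 28.9% ± 1.58 in controls. Fzd2 (55.8 ± 12.2 TPM) and Fzd1 (50.7 ± 0.907 TPM) led the receptors in controls, ahead of Fzd6 (26.7 ± 2.38), Fzd4 (24.6 ± 2.83) and Fzd3 (16.5 ± 0.603). Fzd2 and Fzd1 did not differ beyond their spread, nor did Fzd6 and Fzd4.

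**Figure D1:**
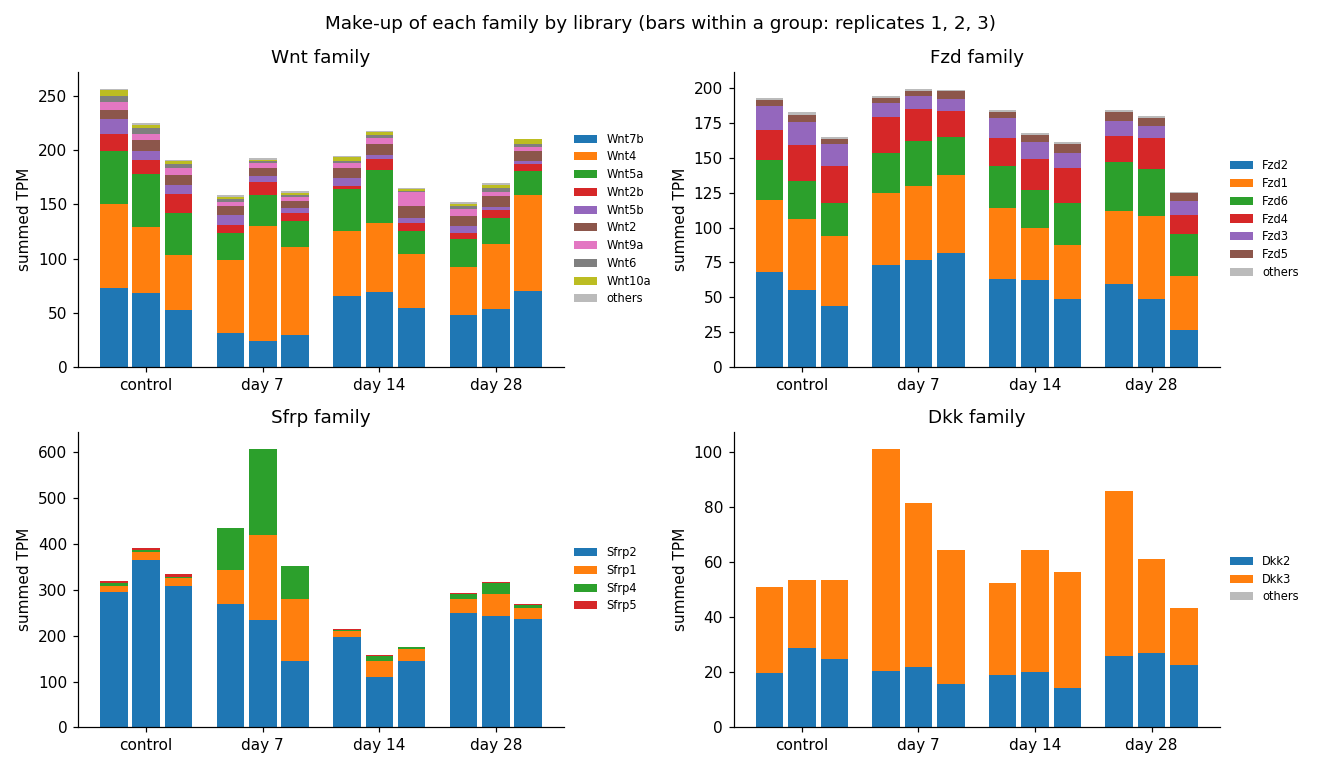
Summed level of each family in TPM (vertical axes) in every library (bars, replicates 1, 2 and 3 of each group from left to right), split by gene. Sfrp2 fills most of the Sfrp bars except at day 7, where Sfrp1 and Sfrp4 are added, and the day-14 Sfrp bars are the lowest at 157 to 214 TPM.

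Of the 10 genes under 100 counts, summed counts ran from 0 to 57 and none passed the filter. They were Wnt1, Wnt3, Wnt3a, Wnt7a, Wnt8a, Wnt8b, Wnt16, Fzd9, Fzd10 and Dkk4. Wnt3a had 0 counts in all 12 libraries. Wnt1 had 0 counts in controls and 14 at day 7, and Wnt16, a ligand of bone and skin, had 5 and 18. These counts were too few for a test here. The 2 rows for Dkk1, the best known of the Dickkopf inhibitors, carry an identifier in their name and so fell outside the rule, and both held 0 counts in every library.

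Sfrp4 (chromosome 17, 47383983 to 47394065 on rn6, the build of all gene positions below) encodes a secreted Wnt antagonist of connective tissue. It stood at 5.43, 2.70 and 2.47 CPM in the 3 controls and at 87.9, 184 and 78.3 CPM at day 7. Day 14 gave 1.60, 9.76 and 3.36 CPM and day 28 gave 10.0, 21.6 and 5.46 CPM. All day-7 libraries lay far above every other library, and replicate 2 was the highest of its group on each of the 3 days. The rise at day 7 was 5.04 ± 0.73 (adjusted p = 0.000675), and the day-14 level was lower than that of day 7 by −4.57 ± 0.71 (adjusted p = 0.00163). At day 28 the level was still lower than at day 7 (−3.24 ± 0.66, adjusted p = 0.00690). Against control it was 12.4 ± 8.35 against 3.53 ± 1.65 CPM, which missed the threshold (1.81 ± 0.66, adjusted p = 0.0816) though the groups did not overlap.

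Sfrp1 (chromosome 16, 73372007 to 73410777), the founding member of the family, followed the same course from a higher base. Its controls held 25.5, 36.0 and 34.9 CPM and its day-7 libraries 148, 370 and 309 CPM. Day 14 gave 24.1, 65.0 and 49.3 CPM, and day 28 gave 57.7, 86.6 and 46.5 CPM. Day 7 stood clear of all other groups, day 14 overlapped the controls, and day 28 lay just above them. The rise at day 7 was 3.10 ± 0.41 (adjusted p = 0.000459). Relative to day 7, day 14 was at −2.58 ± 0.40 (adjusted p = 0.00171) and day 28 at −2.12 ± 0.40 (adjusted p = 0.00471). Against control, day 28 was at 0.98 ± 0.39 and was not called (adjusted p = 0.103). The calls of Sfrp1 and Sfrp4 at day 7, and between day 7 and each later day, were kept under all 18 alternatives.

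Sfrp2 (chromosome 2, 182723732 to 182731277), a fibroblast product and the most abundant inhibitor here, went the other way. Controls held 282, 353 and 302 CPM, day 7 held 271, 240 and 167 CPM, day 14 held 182, 106 and 137 CPM, and day 28 held 238, 229 and 227 CPM. Every injured library was below the lowest control, and day 14 was the lowest group. The fall at day 14 was −1.14 ± 0.20 (adjusted p = 0.0222), and day 14 was also lower than day 7 (−0.67 ± 0.20, adjusted p = 0.0371). Days 7 and 28 missed the threshold (adjusted p = 0.109 and 0.162). Omission of day-14 replicate 3, or of a single control, ended the day-14 call (adjusted p 0.0743 to 0.0925, from 1.59e-05 to 0.0925 over all alternatives). The call against day 7 was lost in 7 of the 18 alternatives, among them leaving out control replicate 3, day-7 replicate 1 or 2, day-14 replicate 2 or 3, or day-28 replicate 2 (adjusted p up to 0.116, from 0.0115). The summed level of the fibroblast markers, mostly collagen, averaged 23300 CPM in controls and 38200, 12600 and 12500 at days 7, 14 and 28. Sfrp2 averaged 312 CPM in controls and 226, 142 and 231 on those days. Only 1 of the 7 markers was called lower at day 14, and Dcn was lowest at day 7. The part of these markers in the course of Sfrp2 was not tested. LOC108350198 spans Sfrp2 on the opposite strand and held 353 counts beside 78196.

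Sfrp5 (chromosome 1, 261442108 to 261446570), whose promoter is printed above, is a scarce member known elsewhere as a secreted product of fat cells. It held 5.08, 4.23 and 5.97 CPM in controls, 0.733, 0.487 and 0.471 CPM at day 7, 0.837, 1.24 and 1.24 CPM at day 14, and 0.534, 1.93 and 1.89 CPM at day 28. No injured library reached 2 CPM and no control was under 4 CPM. The falls were −3.17 ± 0.45 at day 7 (adjusted p = 0.000613), −2.20 ± 0.42 at day 14 (adjusted p = 0.0278) and −1.81 ± 0.42 at day 28 (adjusted p = 0.0117). Omission of a single control or day-14 library ended the day-14 call (adjusted p 0.0501 to 0.0995, from 4.48e-05 to 0.0995 over all alternatives). All 4 adipocyte markers, Adipoq among them, were called higher at day 7 while Sfrp5 was lower, with a summed level of 0.292 to 0.750 CPM in controls and 14.1 to 82.2 CPM at day 7.

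Dkk3 (chromosome 1, 176940424 to 176983076), a divergent Dickkopf that is not thought to bind the Lrp co-receptors, rose at day 7. Controls held 80.6, 64.1 and 76.0 CPM against 219, 164 and 151 CPM at day 7, a change of 1.27 ± 0.31 (adjusted p = 0.0106). Day 14 held 82.8, 114 and 107 CPM and day 28 held 153, 86.2 and 53.2 CPM. The day-7 libraries were above all controls, while day 28 spanned from below the controls to the day-7 range. Dkk2, which acts on Lrp5 and Lrp6, was not called in any comparison and averaged 36.9 ± 7.36 CPM in controls, with 31.7 ± 3.34, 26.3 ± 4.49 and 37.5 ± 2.98 CPM at days 7, 14 and 28.

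**Figure D2:**
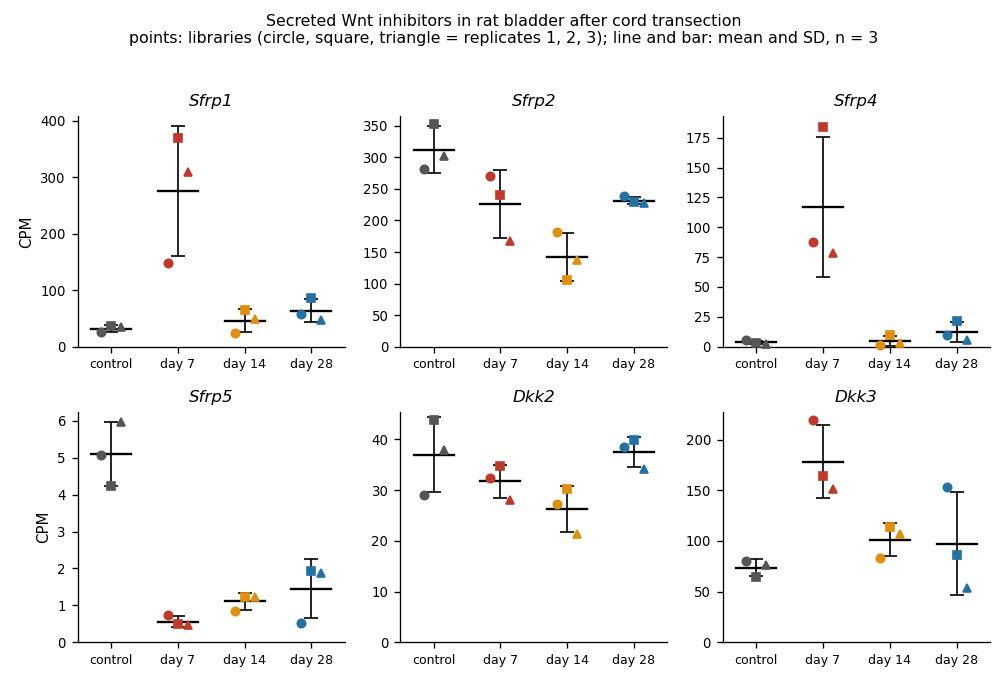
CPM (vertical axes, from 0) of the 6 secreted inhibitors with at least 100 counts, by group (horizontal axes). Points are libraries and bars are mean ± SD; Sfrp1, Sfrp4 and Dkk3 are highest at day 7, Sfrp2 is lowest at day 14, and Sfrp5 is below 2 CPM in every injured library.

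Among the ligands, Wnt7b (chromosome 7, 126423418 to 126465724), an epithelial signal, was lower at day 7 than in the other 3 groups. Its libraries held 36.7, 35.1 and 27.3 CPM in controls, 16.6, 13.1 and 18.0 CPM at day 7, 31.6, 35.1 and 27.4 CPM at day 14, and 24.2, 26.8 and 35.3 CPM at day 28. The day-7 libraries lay below all 9 others, and day-28 replicates 1 and 2 lay just below the lowest control. The fall at day 7 was −1.05 ± 0.18 (adjusted p = 0.00173). Day 14 was higher than day 7 by 0.98 ± 0.18 (adjusted p = 0.00386), and so was day 28, by 0.85 ± 0.18 (adjusted p = 0.00790). These 3 calls were kept under all 18 alternatives. Of the 9 urothelial markers, 5 were called lower and 0 higher at day 7, with a median of −0.66. At day 28, 4 of them were called lower and 0 higher, with a median of −0.15, while Wnt7b was not called against control (adjusted p = 0.479). The part of these markers in the fall of Wnt7b was not tested.

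Wnt5a (chromosome 16, 4469451 to 4490271) is the best known ligand of the branch that works without beta-catenin. Controls held 130, 132 and 107 CPM and day 7 held 69.2, 81.6 and 78.8 CPM. Day 14 held 98.7, 129 and 55.6 CPM, and day 28 held 67.3, 63.1 and 58.9 CPM. Days 7 and 28 lay below every control, and day 14 was spread over both ranges. The fall was −0.68 ± 0.23 at day 7 (adjusted p = 0.0469) and −0.96 ± 0.23 at day 28 (adjusted p = 0.0142). The day-7 call was lost when any of 10 single libraries was left out, every control and every day-7 library among them (adjusted p 0.0523 to 0.126, from 0.00319 to 0.126 over all alternatives). The day-28 call was lost without control replicate 2 only (adjusted p = 0.0522, from 0.000729 to 0.0522 over all alternatives). Its close relative Wnt5b (chromosome 4, 151500962 to 151516894) held 17.2, 11.1 and 10.9 CPM in controls and 12.3, 7.79 and 6.73 CPM at day 7. It held 8.92, 4.74 and 5.49 CPM at day 14 and 8.34, 3.23 and 4.05 CPM at day 28. Replicate 1 was the highest library of each group, and days 14 and 28 lay below the lowest control. The fall was called at day 28 (−1.33 ± 0.38, adjusted p = 0.0325). Omission of a single control, or of day-28 replicate 2 or 3, ended the call (adjusted p 0.0576 to 0.118, from 0.000810 to 0.118 over all alternatives).

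Wnt2b (chromosome 2, 207433771 to 207457094), a ligand of mesenchyme, held 80.0, 66.2 and 89.9 CPM in controls, 40.6, 61.4 and 45.5 CPM at day 7, 18.0, 52.4 and 39.1 CPM at day 14, and 27.9, 38.8 and 31 CPM at day 28. All injured libraries were below all controls. Only the day-28 difference passed the test (−1.27 ± 0.31, adjusted p = 0.0158), while day 7 (−0.68 ± 0.31, adjusted p = 0.127) and day 14 (−1.11 ± 0.31, adjusted p = 0.0863) did not. The call was lost without control replicate 3 or day-28 replicate 3 (adjusted p 0.0568 and 0.0513, from 0.000578 to 0.0568 over all alternatives).

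Wnt6 (chromosome 9, 82033543 to 82047172), an epithelial ligand whose promoter is printed above, held 6.06, 5.76 and 3.57 CPM in controls. It held 2.49, 2.05 and 2.39 CPM at day 7, 1.89, 2.34 and 0.921 CPM at day 14, and 2.13, 3.56 and 2.83 CPM at day 28. No injured library reached the lowest control, though day-28 replicate 2 was nearly level with it. The fall was −1.15 ± 0.34 at day 7 (adjusted p = 0.0288) and −1.58 ± 0.35 at day 14 (adjusted p = 0.0419), and day 28 was not called (−0.85 ± 0.34, adjusted p = 0.105). The day-7 call ended when day-7 replicate 2 or 3, or control replicate 1 or 2, was omitted (adjusted p 0.0671 to 0.0959, from 0.00548 to 0.0959 over all alternatives). The day-14 call was lost in 9 of 18 alternatives, among them leaving out day-28 replicate 2, day-14 replicate 1 or 3, day-7 replicate 2 or 3, or a single control (adjusted p 0.0523 to 0.145, from 0.000655 to 0.145 over all alternatives). Wnt10a starts 6.41 kb downstream of Wnt6 on the same strand, and was not called in any comparison (4.18 ± 1.39 CPM in controls, 2.52 ± 0.657 at day 7).

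Wnt9b (chromosome 10, 91785892 to 91808061), a ligand of the developing kidney duct, was close to the limit of detection outside day 7. Its counts were 0, 5 and 0 in controls and 22, 70 and 23 at day 7, followed by 2, 1 and 0 at day 14 and 10, 8 and 3 at day 28. Every day-7 library held more counts than any other library. The summed counts of 115 and 5 gave a ratio of 23.1 to control, with an exact 95% interval of 9.63 to 72.6, and the ratio of day 7 to day 14 was 38.9 (13.0 to 191). These intervals cover counting error only. In the fitted model the change was 4.41 ± 1.00 at day 7 (adjusted p = 0.00800) and −5.10 ± 1.07 from day 7 to day 14 (adjusted p = 0.00788). Without control replicate 2, which held all 5 control counts, the day-7 log2 value was 8.29, a figure that depends on how a group at 0 is modelled. Wnt3 lies 22.6 kb away on the opposite strand and had 11 counts in controls and 11 at day 7.

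**Figure D3:**
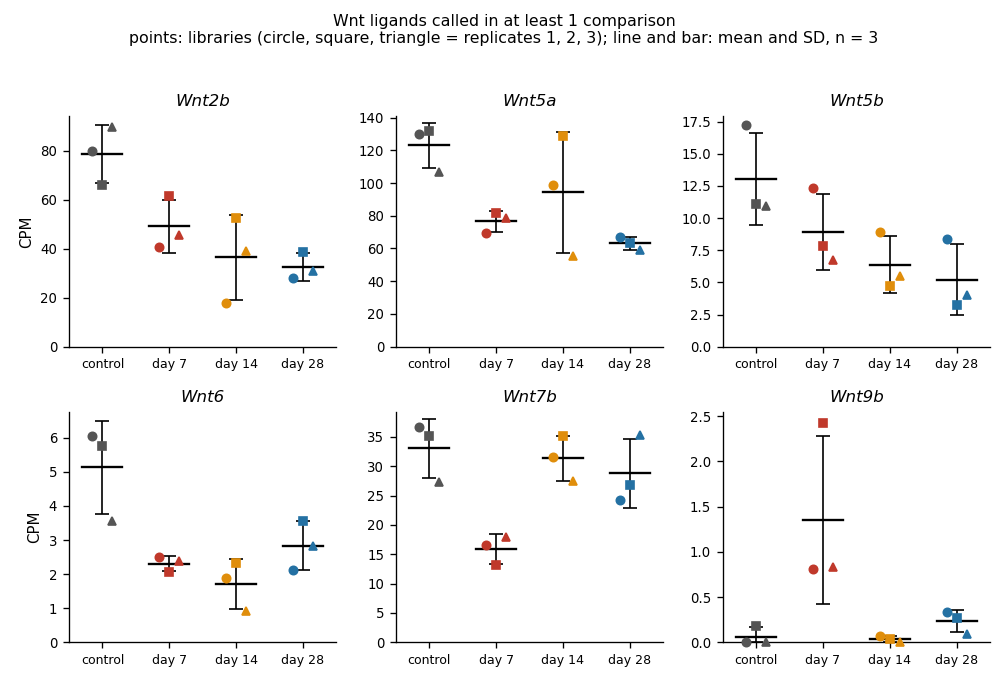
CPM (vertical axes, from 0) of the 6 Wnt ligands called in at least 1 comparison, by group (horizontal axes). Points are libraries and bars are mean ± SD; bars end at 0 where they would pass it. Wnt7b is lowest and Wnt9b highest at day 7, and all 9 injured libraries of Wnt2b lie below its controls.

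The other 6 ligands with at least 100 counts were not called in any comparison. Wnt4, expressed by epithelium and stroma in many organs, averaged 37.3 ± 7.44 CPM in controls and 55.1 ± 12.3 at day 7 (0.56 ± 0.25, adjusted p = 0.120), with overlapping groups. Wnt2 averaged 33.4 ± 3.26 CPM in controls and 29.5 ± 1.75, 35.1 ± 5.34 and 33.5 ± 1.56 CPM at days 7, 14 and 28. Wnt11 averaged 2.16 ± 0.363 CPM in controls and 0.992 ± 0.457 at day 28, where it just missed the threshold (−1.12 ± 0.37, adjusted p = 0.0543) though no libraries overlapped. Wnt9a averaged 10.5 ± 0.948 CPM in controls and 12.8 ± 6.54 at day 14, where replicate 3 stood at 20.3 CPM against 8.26 and 9.83 in the others. Wnt10b held 111 counts in all, and it overlaps Wnt1 by 1161 bases on the opposite strand, so reads of these neighbours cannot be told apart if the counting ignored strand.

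Fzd3 (chromosome 15, 48601259 to 48670257), a receptor of planar polarity, had closely grouped replicates. It stood at 22.7, 22.4 and 21.8 CPM in controls, 14.0, 13.2 and 14.2 CPM at day 7, 19.1, 16.4 and 14.8 CPM at day 14, and 14.3, 11 and 12.7 CPM at day 28. No injured library reached a control. The fall was −0.69 ± 0.13 at day 7 (adjusted p = 0.00268) and −0.81 ± 0.13 at day 28 (adjusted p = 0.00165), both kept under all 18 alternatives, and day 14 was not called (−0.41 ± 0.13, adjusted p = 0.115). Fzd7 (chromosome 9, 66059765 to 66153729), a receptor of many stem cells, was scarce. It held 1.53, 2.84 and 2.36 CPM in controls, 0.917, 0.765 and 0.326 CPM at day 7, 1.24, 1.20 and 1.13 CPM at day 14, and 1.27, 1.03 and 0.674 CPM at day 28. Day 7 gave the lowest levels, and no injured library overlapped the controls. It fell at day 7 (−1.74 ± 0.41, adjusted p = 0.00907), and day 28 missed the threshold (−1.18 ± 0.39, adjusted p = 0.0583).

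Fzd6 (chromosome 7, 77898329 to 77931034), another polarity receptor, held 85.1, 81.6 and 73.7 CPM in controls, 88.7, 101 and 97.1 CPM at day 7, 86.1, 81.6 and 90.3 CPM at day 14, and 103, 99.0 and 90.9 CPM at day 28. Days 7 and 28 lay above the controls by a small margin. The day-28 difference was called (0.28 ± 0.09, adjusted p = 0.0487), but the call was lost in 14 of 18 alternatives, 10 of them the removal of 1 library (adjusted p up to 0.195, from 0.0223 over all alternatives); only day-7 replicate 1 and day-28 replicate 3 could be left out without losing it. Fzd1 (chromosome 4, 26470864 to 26475262) held 109, 110 and 109 CPM in controls and 116, 121 and 143 CPM at day 7. It held 105, 79.8 and 80.7 CPM at day 14 and 111, 124 and 82.7 CPM at day 28. Day 14 lay below both the controls and day 7. The call from day 7 to day 14 (−0.52 ± 0.15, adjusted p = 0.0343) was lost in 8 alternatives, among them the omission of day-14 or day-7 replicate 2 or 3 or of a single control (adjusted p 0.0505 to 0.128, from 0.0129 to 0.128 over all alternatives). Fzd2 (chromosome 10, 90550147 to 90552057), the receptor with the highest TPM in controls, held 63.0, 51.6 and 41.8 CPM in controls, 71.3, 75.9 and 91.6 CPM at day 7, 55.8, 57.6 and 44.9 CPM at day 14, and 54.6, 44.4 and 24.4 CPM at day 28. Day 7 was above all other groups, and day-28 replicate 3 was the lowest library. Day 28 was lower than day 7 (−0.95 ± 0.25, adjusted p = 0.0220), a call that ended with day-7 replicate 2 or 3 omitted and with only the 2 groups modelled (adjusted p 0.0529 to 0.0774, from 0.00287 to 0.0774 over all alternatives). Fzd4, Fzd5 and Fzd8 were not called in any comparison. Fzd4, the vascular receptor, averaged 82.5 ± 10.6 CPM in controls and 59.7 ± 13.0 at day 28 (adjusted p = 0.0715), while all 5 endothelial markers were called higher at day 7 and 4 of them at day 28.

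**Figure D4:**
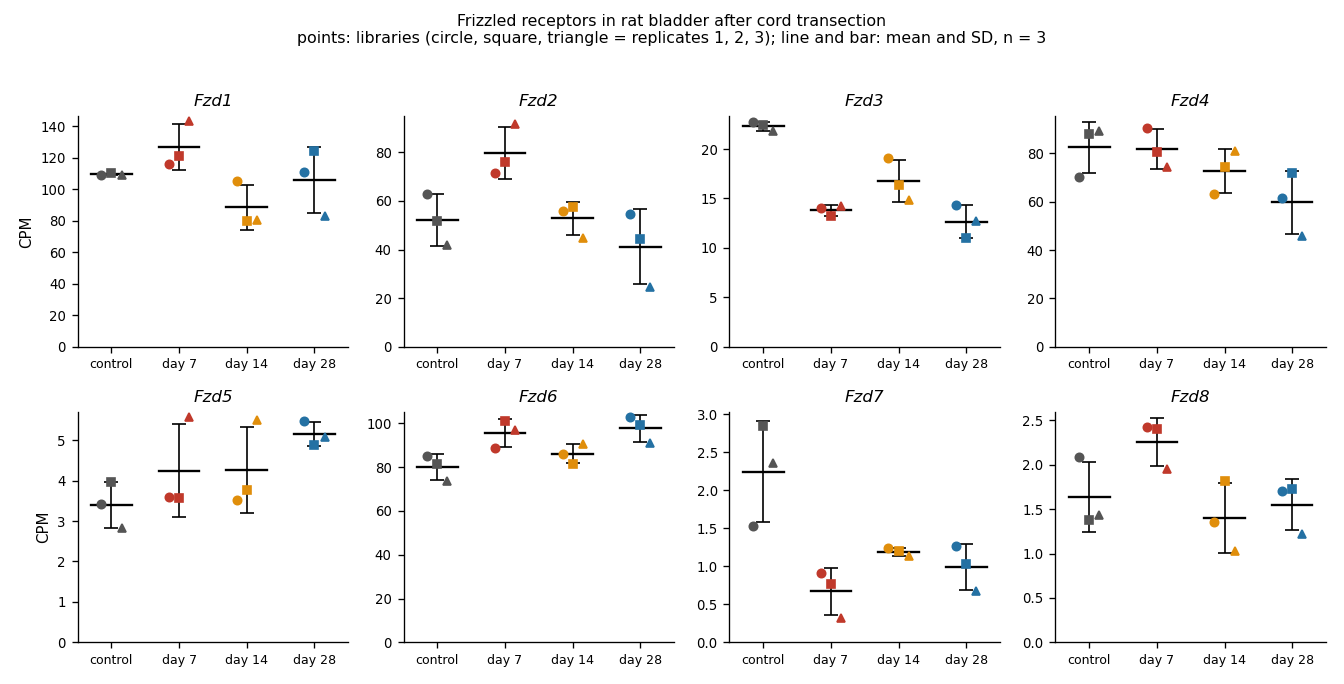
CPM (vertical axes, from 0) of the 8 Frizzled receptors with at least 100 counts, by group (horizontal axes). Points are libraries and bars are mean ± SD; Fzd3 and Fzd7 lie below all controls in every injured library, and Fzd2 is highest at day 7.

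Other genes of the pathway were counted in 8 lists holding 87 genes besides those above, 74 of which were tested. At day 7, 12 were called higher and 12 lower (15.6% and 10.5% of all tested genes), with a median of 0.08. At day 14, 0 were higher and 4 lower (1.45% and 0.995%), and at day 28, 4 were higher and 11 lower (11% and 7.51%). Genes for the secretion and removal of Wnt had 1 higher and 1 lower of 6 at day 7. Porcn, which attaches the lipid to Wnt proteins, fell from 50.9 ± 11.8 to 26.1 ± 2.44 CPM (−0.96 ± 0.17, adjusted p = 0.00184). Trabd2b, a protease that inactivates Wnt proteins, rose from 11.9 ± 2.69 to 41.8 ± 1.59 CPM (1.81 ± 0.27, adjusted p = 0.000755). The carrier Wls was not called on any day, at 276 ± 24.3 CPM in controls and 235 ± 11.6 at day 7.

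Of 12 co-receptors and alternative receptors, 4 were higher and 0 lower at day 7, beside 15.6% and 10.5% of all genes. Those higher were Ptk7 (61.1 ± 1.63 to 133 ± 18.0 CPM), Gpc4 (56.6 ± 2.38 to 118 ± 25.1 CPM), Ror1 (16.8 ± 2.0 to 31.2 ± 4.12 CPM) and Ror2 (36.0 ± 4.33 to 69.2 ± 5.41 CPM). Ptk7, Ror1 and Ror2 are receptors of the branch without beta-catenin, and Ror2 binds Wnt5a, which was lower at that time. The beta-catenin co-receptors Lrp5 (62.7 ± 6.74 and 67.5 ± 9.97 CPM) and Lrp6 (127 ± 7.05 and 133 ± 11.7 CPM) were not called. Among 7 other extracellular inhibitors tested, 2 were higher at day 7 and the same 2 at day 28. They were Igfbp4, a binding protein that also acts on Wnt receptors (2.57 ± 0.25 at day 7, 1.49 ± 0.24 at day 28), and the Wnt-binding Wif1 (1.91 ± 0.35 and 1.52 ± 0.35). Frzb, a relative of the Sfrp genes whose symbol falls outside the rule, is not part of the Sfrp totals above. It was not called, at 13.8 ± 10.4 CPM in widely spread controls and 22.9 ± 0.838 CPM at day 28.

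Of 14 tested genes often cited as beta-catenin targets, 7 were lower and 2 higher at day 7 (10.5% and 15.6% of all genes), 3 lower and 0 higher at day 14 (0.995% and 1.45%), and 4 lower and 2 higher at day 28 (7.51% and 11%). Axin2, a feedback inhibitor, was called lower at day 7 (20.5 ± 3.95 to 13.5 ± 2.94 CPM, −0.60 ± 0.19, adjusted p = 0.0339). That call ended with replicate 2 or 3 of the controls or of day 7 omitted, and with only the 2 groups modelled (adjusted p up to 0.129, from 0.0114 over all alternatives). Nkd1, which restrains Dishevelled, was lower on all 3 days (−0.68 ± 0.12, −0.56 ± 0.12 and −0.74 ± 0.12). So was Lgr5, an R-spondin receptor (−1.69 ± 0.36, −1.59 ± 0.35 and −1.42 ± 0.35). For both, the day-14 call was lost in 8 alternatives, any 1 control left out among them, with adjusted p up to 0.14 for Nkd1 (from 0.00163 over all alternatives) and up to 0.146 for Lgr5 (from 0.000674). The day-28 call of Lgr5 ended with replicate 2 of the controls or of day 28 omitted (adjusted p up to 0.0590, from 0.000737 over all alternatives). Lgr6, another R-spondin receptor and not in this list, was higher at day 7 (3.15 ± 0.999 to 12.7 ± 7.77 CPM, adjusted p = 0.00823). Of 7 tested genes of the R-spondin axis, 1 was higher and 2 lower at day 7 (15.6% and 10.5% of all genes). The cited targets called higher at day 7 were Wisp1, a matrix-associated growth factor (2.81 ± 0.457 to 33.0 ± 15.1 CPM at day 7, 3.55 ± 0.47), and Lef1 (1.19 ± 0.32 at day 7 and 1.71 ± 0.33 at day 28). The day-7 call of Lef1 ended when day-7 replicate 1, or control replicate 1 or 2, was omitted (adjusted p up to 0.0763, from 0.00252 over all alternatives). Tcf7 rose at day 28 only (10.9 ± 0.855 to 27.5 ± 7.61 CPM, 1.34 ± 0.21). Of 12 nuclear factors, Tcf7l1, mostly a repressor, was the 1 called lower on days 14 and 28 (−0.51 ± 0.12 and −0.50 ± 0.12). Its day-14 call ended with a single control or day-14 library omitted, and also with day-28 replicate 1 or day-7 replicate 2 or 3 omitted (adjusted p up to 0.162, from 0.00388 over all alternatives). Ctnnb1, which encodes beta-catenin itself, was not called, at 761 ± 21.6 CPM in controls and 766 ± 35.2, 917 ± 214 and 977 ± 122 CPM at days 7, 14 and 28.

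**Figure D5:**
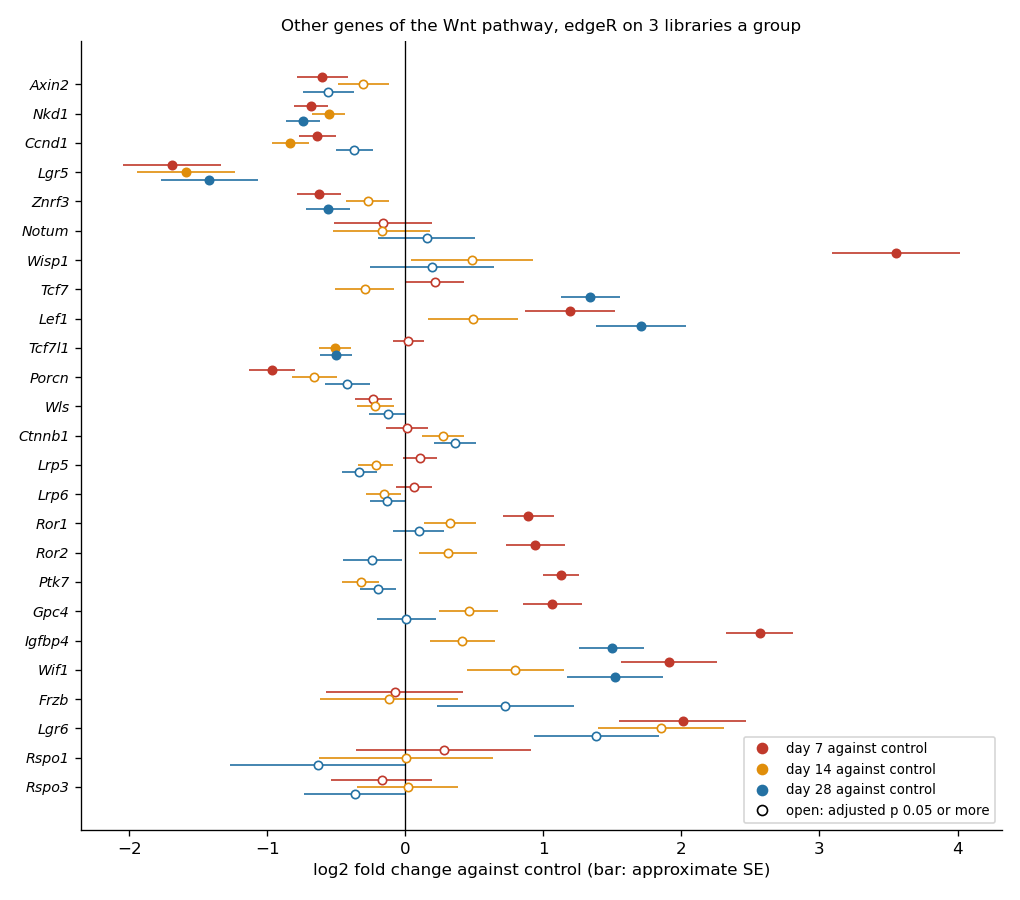
Log2 fold change against control (horizontal axis, bars are approximate SE) of 25 other genes of the pathway at days 7, 14 and 28. Filled points passed the test; Nkd1 and Lgr5 are lower on all 3 days, and Wisp1, Igfbp4, Lgr6 and Wif1 have the largest rises at day 7.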

How the data were processed

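Whole-bladder RNA was depleted of ribosomal RNA and sequenced as single reads of 50 bases, per the labels' protocols. The rat build rn6 and the tools HTSeq 0.11.2, HISAT2 2.1.0 and bcl2fastq are listed in the submitters' processing notes. The sources used here do not give whether counting used strand. The authors deposited whole-number read counts per gene without normalization, and TPM, per the file headers. The deposited TPM equalled counts per deposited length after scaling each library to a common total (largest relative difference 5e-15).

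After filterByExpr with a minimum count of 10 and a minimum total of 15, counts were scaled by TMM and tested in 1 edgeR 4.0.16 quasi-likelihood model of all 12 libraries (R 4.3.3, limma 3.58.1, data.table version 1.17.8). CPM were computed from counts after TMM. The SE was obtained as the size of the log2 fold change over the root of its F statistic. Scripts were tested on simulated data. Plots used Python 3.11.15 and matplotlib 3.10.9. Groups came from sample titles. Nothing states the origin of replicates beyond separate samples, so p-values measure the spread between these samples. No pair of replicates was within sampling noise of each other (15 to 115 for chi-square over its degrees of freedom).

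Genes called in any of the 6 comparisons are given per library, the others by group. From each pathway list the 3 genes with the smallest p were eligible to be named, plus 14 fixed by name. The genes and lists were chosen with earlier results of these data known. Alternatives were DESeq2 1.42.0, RLE size factors, a filter at a mean of 1 CPM, no filter, only the 2 groups compared, a replicate block, and each library left out.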

Additional observations from a re-analysis of the deposited data

Results flagged for a closer look

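The difference of a gene from control changed between days wherever 2 days differed by edgeR's test, since both share the same controls. From day 7 to day 14 this held for Sfrp4 (−4.57), Wnt9b (−5.10), Sfrp1 (−2.58), Sfrp2 (−0.67), Fzd1 (−0.52) and Wnt7b (0.98), as log2 fold changes. From day 7 to day 28 it held for Sfrp4 (−3.24), Sfrp1 (−2.12), Fzd2 (−0.95) and Wnt7b (0.85). Sfrp1, Sfrp4 and Wnt7b are the 3 genes for which both later days differed from day 7. Wnt9b entered the test only through its day-7 counts.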

How the results depend on the processing

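Of the called values, 8 of 10 at day 7 kept their call under every alternative tried, as did 2 of 6 at day 28, 4 of 6 between days 7 and 14, and 3 of 4 between days 7 and 28. None of the 3 at day 14 did. Wnt9b could not be tested at a mean of at least 1 CPM. No log2 fold change given for these genes turned its direction. With single libraries left out, the called genes of the 4 families numbered 8 to 10 at day 7, 0 to 3 at day 14, 3 to 7 at day 28, 4 to 9 between days 7 and 14, 0 to 1 between days 14 and 28 and 3 to 7 between days 7 and 28. The day-14 count of 3 was 0 without any 1 control or day-14 replicate 3 and 1 without day-14 replicate 1. The day-28 count of 6 was 3 without control replicate 2 or 3. Over all genes the ranges were 3061 to 4948, 16 to 579, 1971 to 3580, 1959 to 3706, 261 to 1120 and 1954 to 3548 in the same order. With DESeq2 the 4 families had 11 calls at day 7 and 4 at day 14, beside 5516 and 1360 over all genes (edgeR 4622 and 433). Between days 14 and 28 they had 2, beside 1647 over all genes (edgeR 768). They had 10 at day 28 and 7 between days 7 and 28. These counts are not set beside all genes here, so they cannot be read as a result about the families. With only the 2 groups modelled, 2195 genes were called between days 7 and 14 (3457 with all groups) and 42 between days 14 and 28. The cause was not tested.

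Same-numbered libraries correlated at −0.0419 to 0.190 in their deviations from group means, and others at −0.256 to 0.133. Deviations sum to 0 within a group, so the ranges are not independent and cannot decide whether replicate numbers pair the samples. With a replicate block, the 4 families had 11 calls at day 7, beside 4788 over all genes. They had 5 at day 14 and 7 between days 7 and 28. Without the counts over all genes beside them, these too cannot be read as a result about the families. With 3 samples a group, many calls near the threshold depended on a single library.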
